A study of Mus musculus with 12 samples.

Results

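The nuclear-encoded subunits of mitochondrial complex I were followed in left ventricular tissue from adult mouse hearts. Members were all rows of the count tables whose gene symbol is an *Nduf* symbol of the a, ab, b, c, s or v series, with the assembly factors (*Ndufaf* symbols) left out. This gave 39 of 21669 rows, 1 transcript name per gene, and all 39 were matched to GENCODE M21 (GRCm38). The 4 groups held 3 libraries each. RPF WT and RPF KO are ribosome-protected fragments, the mRNA pieces that ribosomes shield from RNase I, and RNA WT and RNA KO are poly(A)-selected RNA from undigested lysate. WT is wild type and KO is labelled Rpl3l-/-, a knockout of the gene for a muscle paralog of the large-subunit ribosomal protein RPL3. Tissue of both genotypes was homogenised in cycloheximide, which holds ribosomes on the mRNA. The labels call the replicates biological, and give neither the sex nor the exact age of the animals, nor the design of the Rpl3l-/- allele.

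Complex I (NADH:ubiquinone oxidoreductase) is the entry point of the respiratory chain: it oxidises NADH, passes the electrons along a flavin and a chain of iron-sulphur clusters to ubiquinone, and pumps protons across the inner mitochondrial membrane. Its hydrophilic matrix arm consists of the N module, where NADH is oxidised, and the Q module, where ubiquinone is reduced. Its membrane arm has a proximal and a distal part, which hold the pumping subunits made inside the mitochondrion. Cardiac muscle relies on this chain for most of its ATP, and assembly needs nuclear and mitochondrial subunits together. Each nuclear subunit is present once in the complex apart from the acyl carrier protein NDUFAB1. *Ndufa4* carries a complex I name but its product belongs to complex IV, and *Ndufa4l2* encodes its hypoxia-related paralog.

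RNA libraries held 6635242 to 8459004 counts, of which transcripts of the mitochondrial genome took 49.8% to 58.2%, and RPF libraries held 3827862 to 7474602 counts with 2.28% to 5.22% from that source. The targeted gene *Rpl3l* stood at 427, 353 and 348 CPM (counts scaled to a common library size with TMM factors within each assay) in RNA WT and at 40.7, 46.3 and 44.6 CPM in RNA KO. Its footprints stood at 192, 259 and 234 CPM in WT and 8.74, 4.39 and 12.8 CPM in KO. In both assays every KO library lay below every WT library, with some *Rpl3l* RNA left in each KO library. All 8 ventricular cardiomyocyte markers were detected in every library, as were those of 7 other cell types of the heart, none of them at 0. The first principal component of the RNA libraries (46.2% of variance) set WT 3, KO 1 and KO 3 apart from WT 1, WT 2 and KO 2, a split that crosses the genotypes. The first component of the RPF libraries (38.2%) set WT 1 apart from the other libraries.

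Complex I subunit mRNAs were abundant in these hearts. The 39 members took 5.96%, 5.77% and 5.07% of nuclear RNA counts in WT 1 to 3 and 5.29%, 5.71% and 5.25% in KO 1 to 3. The means were 5.60% ± 0.47 (SD, n = 3) in WT and 5.41% ± 0.26 (SD, n = 3) in KO, and the groups overlapped. Of nuclear footprints the members took 2.37% ± 0.11 in WT and 2.37% ± 0.077 in KO (SD, n = 3). Leaving out *Ndufa4l2*, the mean RNA level in WT ran from 99.1 to 1975 CPM, and all 39 members passed the filter on low counts in both assays. The paralog *Ndufa4l2* was the exception in level, at 1.14, 0.389 and 1.15 CPM in RNA WT and 1.62, 1.35 and 1.41 CPM in RNA KO, from 3 to 14 counts a library.

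The members varied more between RNA libraries than between RPF libraries of the same genotype. For RNA the median coefficient of variation over members was 18.6% among WT libraries and 14.0% among KO libraries, against 8.13% in RPF WT and 7.79% in RPF KO. RNA WT libraries 1 to 3 had a mean log2 level over the 39 members of 9.08, 8.86 and 8.61, and the KO libraries one of 8.70, 8.91 and 8.65. WT 1 was thus the highest RNA library and WT 3 the lowest, both of the same genotype. In RPF the same mean was 8.80, 8.76 and 8.91 in WT and 8.83, 8.82 and 8.81 in KO. The RNA order followed the split seen over all genes. In WT 3, KO 1 and KO 3 all values of 26 members lay below all values in WT 1, WT 2 and KO 2, and those of 3 members lay above (18.4% and 17.8% of 8311 nuclear rows, respectively). The summed RNA level of the ventricular cardiomyocyte markers was 61263, 52372 and 45645 CPM in WT 1 to 3 and 44626, 51209 and 45142 CPM in KO 1 to 3. This sum too was lowest in WT 3, KO 1 and KO 3, and values of the single markers are not given here. The sums of the other cell types overlapped across the split. Mural markers, for example, had 89.2, 79.4 and 68.2 CPM in RNA WT and 78.4, 66.2 and 97.7 CPM in RNA KO. The part of cell composition or RNA quality in the split of the members was not tested. Fewer cells of a type and less RNA per cell cannot be told apart in bulk tissue.

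**Figure D1:**
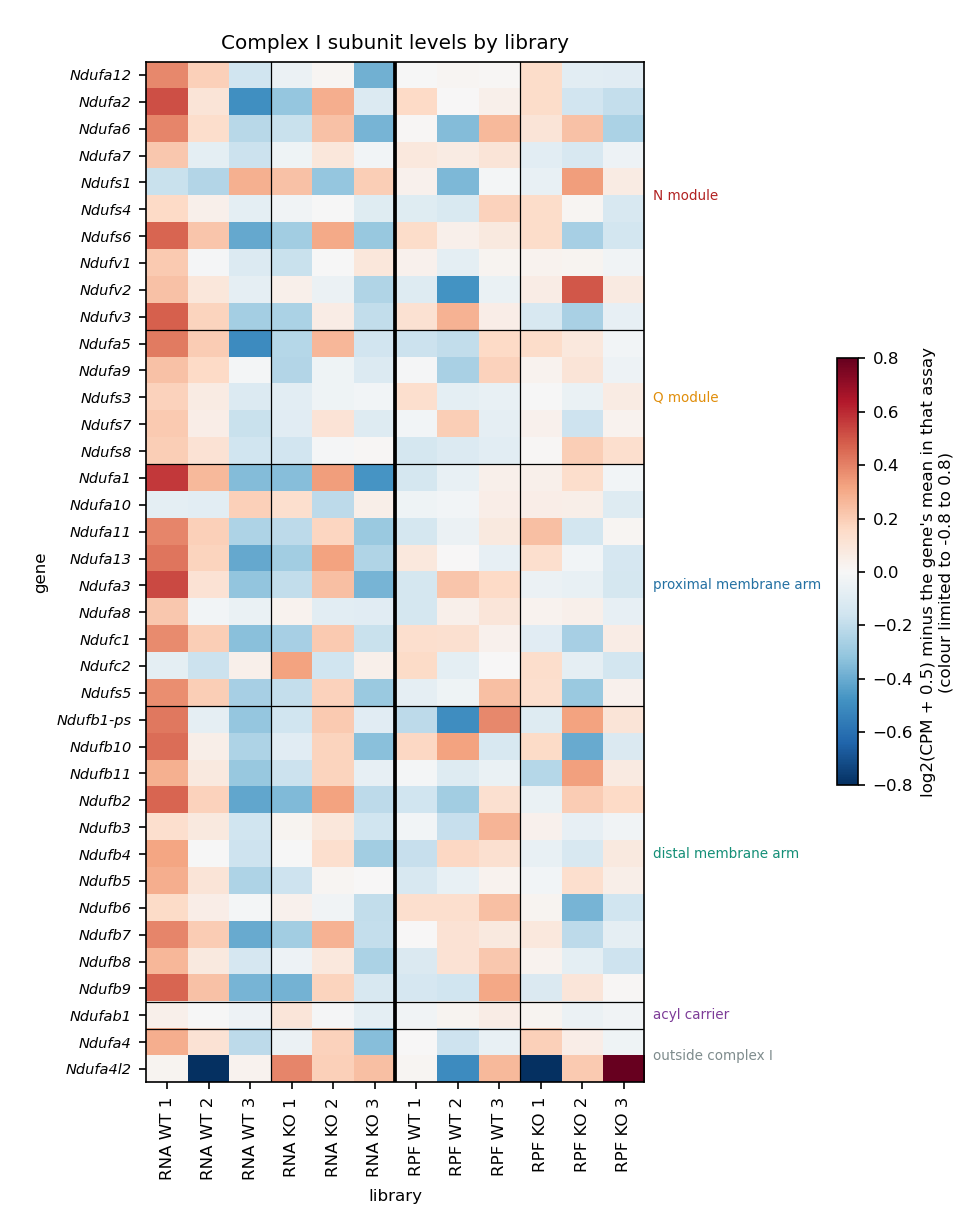
Level of 38 of the 39 members (rows, grouped by place in the complex) in each of the 12 libraries (columns), as log2(CPM + 0.5) minus the gene's mean over the 6 libraries of that assay; red is above and blue below the mean. The RNA columns WT 1, WT 2 and KO 2 are mostly red and WT 3, KO 1 and KO 3 mostly blue, while the RPF columns show less contrast.

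**Figure D2:**
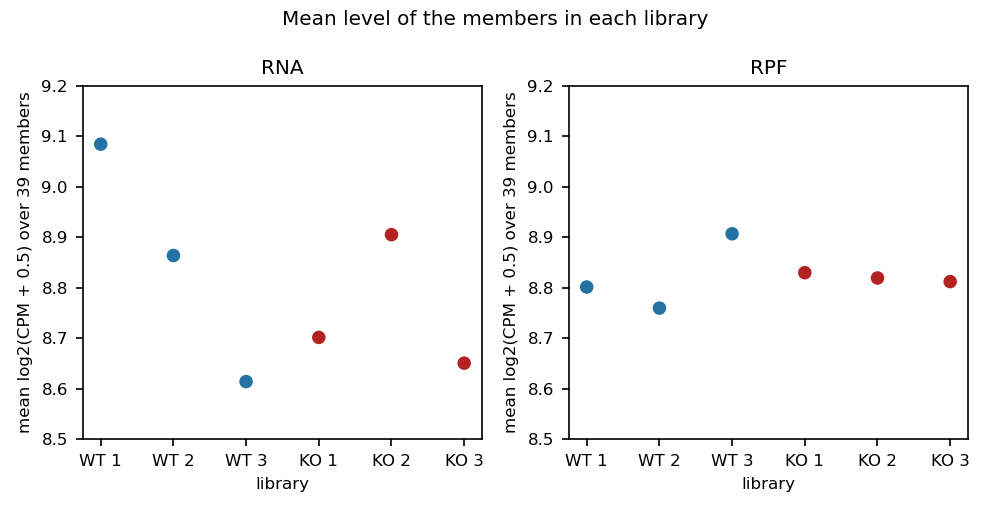
Mean of log2(CPM + 0.5) over the 39 members in each library (y axis, starting at 8.5) for RNA and RPF, WT in blue and KO in red. RNA WT ranges from 8.61 to 9.08 and contains all 3 RNA KO values, and the 3 RPF KO values lie between 8.81 and 8.83, inside the RPF WT range.

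Loss of *Rpl3l* was first compared at the mRNA level, to see whether subunit transcripts differed between genotypes. No member passed the test: edgeR's quasi-likelihood F test, with p adjusted over all rows and a threshold of 0.05, called 0 of 39, against 0.0119% of all rows tested, which is *Rpl3l* alone. None of the members had an unadjusted p below 0.05 either (2.54% of all rows), and DESeq2 also called 0. The log2 fold change was below 0 in 34 of 39 members (50.9% of all rows), with a median of -0.12 beside -0.01 over all rows. The count was not stable: without library WT 1, 21 of 39 were below 0, with a term for the split of the RNA libraries 23 of 39, and without WT 1 the members' median relative to that of all rows was -0.0033. Within the split of the RNA libraries, KO 2 was lower than the mean log2 level of WT 1 and WT 2 in 35 members (median -0.08), while the mean of KO 1 and KO 3 was lower than WT 3 in 11 (median 0.05). KO 2 and WT 3 were each the only library of their genotype in these comparisons. The shares over all rows are not given here.

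By place in the complex, the log2 fold change in RNA was below 0 in 8 of 10 N module members, 6 of 6 in the Q module, 8 of 9 in the proximal and 11 of 11 in the distal membrane arm. Of all rows 50.9% were below 0. Over all 39 members the count was 21 without library WT 1, and no count by module without that library is given here. None of these members passed the test. The lowest value was that of *Ndufa1*, an X-linked single-helix subunit of the proximal arm needed for assembly (chrX:37187588-37191163, minus strand, 3 exons). It stood at 919, 746 and 489 CPM in RNA WT and at 490, 785 and 448 CPM in RNA KO. These ranges overlapped, and the log2 fold change was -0.32 ± 0.28 (SE; edgeR adjusted p = 0.999). *Ndufv3*, an accessory subunit of the N module, followed with 599, 487 and 356 CPM in WT and 360, 447 and 374 CPM in KO. *Ndufa12*, an accessory subunit at the junction of the N and Q modules, had 765, 670 and 524 CPM in WT and 566, 593 and 448 CPM in KO. WT 3 lay below every KO value of *Ndufv3* and among those of *Ndufa12*.

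The 3 highest values in RNA were those of *Ndufs1*, *Ndufc2* and *Ndufa4l2*. *Ndufs1*, the largest core subunit, which holds several iron-sulphur clusters, had 136, 130 and 187 CPM in WT and 181, 124 and 176 CPM in KO. It was highest in WT 3, KO 1 and KO 3, the reverse of most members, and its log2 fold change of 0.09 became -0.09 with a term for the split of the libraries. *Ndufc2*, a small membrane-arm subunit, had 98.3, 92.3 and 107 CPM in WT and 130, 93.1 and 107 CPM in KO. For *Ndufa4l2* each KO library lay above each WT library, as in 4.14% of all rows, with a log2 fold change of 0.68 ± 0.45 (SE; edgeR adjusted p = 0.999) that rests on 3 to 14 counts. *Ndufa9*, a Q module subunit that binds a nucleotide, was the single member whose RNA KO libraries, at 637, 731 and 695 CPM, all lay below its WT libraries, at 880, 836 and 742 CPM (3.23% of all rows). Its log2 fold change was -0.25 ± 0.17 (SE; edgeR adjusted p = 0.999).

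Footprints gave the narrower comparison. Of the 39 members 0 passed the test in RPF (0.00897% of all rows, again *Rpl3l* alone), and 21 of 39 had a log2 fold change below 0 (49.8% of all rows), with a median of -0.00 beside 0.00 over all rows. The 95% interval of the fold change lay within 1.5-fold in either direction (0.58 on the log2 scale) for 35 of 39 members, against 20 of 39 in RNA. The 4 others were *Ndufv2*, *Ndufb6*, *Ndufb1-ps* and *Ndufa4l2*. An unadjusted p below 0.05 was found for 3 of 39 members (5.96% of all rows), *Ndufv2*, *Ndufv3* and *Ndufb6*, all with an adjusted p of 0.834 in edgeR. DESeq2 also called 0 members.

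*Ndufv2*, a core N module subunit with an iron-sulphur cluster off the main electron path (chr17:66078638-66101559, minus strand, 8 exons), had 561, 432 and 581 footprint CPM in WT and 626, 850 and 633 CPM in KO. Each KO library lay above each WT library, as in 6.28% of all rows. The log2 fold change was 0.42 ± 0.15 (SE; 95% interval 0.10 to 0.74), and the nearest libraries, KO 1 and WT 3, differed little. *Ndufv3* footprints (chr17:31520118-31531331, plus strand, 4 exons) stood at 1037, 1157 and 989 CPM in WT and 872, 798 and 913 CPM in KO. Its fold change was -0.30 ± 0.12 (SE; 95% interval -0.55 to -0.06), and all KO libraries lay below all WT libraries, as in 5.77% of all rows. *Ndufb6*, a distal membrane arm subunit (chr4:40270591-40279421, minus strand, 4 exons), had 268, 269 and 288 CPM in WT and 249, 188 and 219 CPM in KO, again without overlap. Its log2 fold change was -0.33 ± 0.14 (SE; 95% interval -0.62 to -0.04).

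A further 2 members had footprint libraries that did not overlap. *Ndufs8*, a core Q module subunit with paired iron-sulphur clusters, had 294, 300 and 305 CPM in WT and 326, 371 and 356 CPM in KO, a log2 fold change of 0.23 ± 0.12 (SE; edgeR adjusted p = 0.835). *Ndufa7*, an accessory subunit of the N module, had 412, 406 and 417 CPM in WT and 366, 354 and 377 CPM in KO, a log2 fold change of -0.17 ± 0.12 (SE; edgeR adjusted p = 0.86). In footprints 2 of 39 members were thus separated with KO higher and 3 of 39 with KO lower. Among the 11153 rows tested 6.28% and 5.77% were separated in these directions, so separation by itself was not particular to the members. None of the 5 members that separated in footprints also separated in RNA. *Ndufb10*, a distal arm subunit, was the third lowest in footprints with 1506, 1679 and 1231 CPM in WT and 1495, 1016 and 1242 CPM in KO, which overlapped. Its gene (chr17:24722060-24724478, minus strand, 4 exons) lies 3341 bases from *Rpl3l* (chr17:24727820-24736143), the gene disrupted in KO. Neither its RNA, with a log2 fold change of -0.18 ± 0.22 (SE), nor its footprints, with -0.24 ± 0.15 (SE), passed the test. *Ndufa4l2* footprints were 14.6, 9.99 and 17.3 CPM in WT and 7.39, 16.7 and 28.01 CPM in KO, an overlap in which KO held both the lowest and the highest value.

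The footprint libraries of 4 other core subunits overlapped between genotypes. *Ndufv1*, which binds NADH and the flavin, had 1606, 1484 and 1593 footprint CPM in WT and 1604, 1594 and 1542 CPM in KO. *Ndufs1* had 1162, 886 and 1122 CPM in WT and 1088, 1432 and 1190 CPM in KO, a log2 fold change of 0.23 ± 0.14 (SE; 95% interval -0.06 to 0.52). For *Ndufv1* the 95% interval of the log2 fold change was -0.20 to 0.24, so differences beyond those bounds are outside the interval. *Ndufs3*, the Q module subunit on which early assembly builds, had 847, 729 and 740 CPM in WT and 768, 741 and 805 CPM in KO. *Ndufs7*, which carries the last iron-sulphur cluster before ubiquinone, had 908, 1060 and 880 CPM in WT and 947, 824 and 940 CPM in KO. Their log2 fold changes were -0.00 ± 0.12 and -0.07 ± 0.12 (SE).

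In RNA the following core subunits were not separated, including *Ndufv2* and *Ndufs8*, which were separated in footprints. *Ndufv1* had 916, 788 and 736 CPM in WT and 701, 791 and 844 CPM in KO. *Ndufv2* had 1035, 937 and 837 CPM in WT and 904, 851 and 746 CPM in KO. For each of them the WT and KO ranges crossed, and the same held for the following 3 core genes of the Q module. *Ndufs3* had 544, 500 and 445 CPM in WT and 452, 467 and 473 CPM in KO. *Ndufs7* had 592, 533 and 453 CPM in WT and 481, 554 and 476 CPM in KO. *Ndufs8* had 396, 375 and 310 CPM in WT and 311, 343 and 347 CPM in KO. Each pair of groups overlapped.

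**Figure D3:**
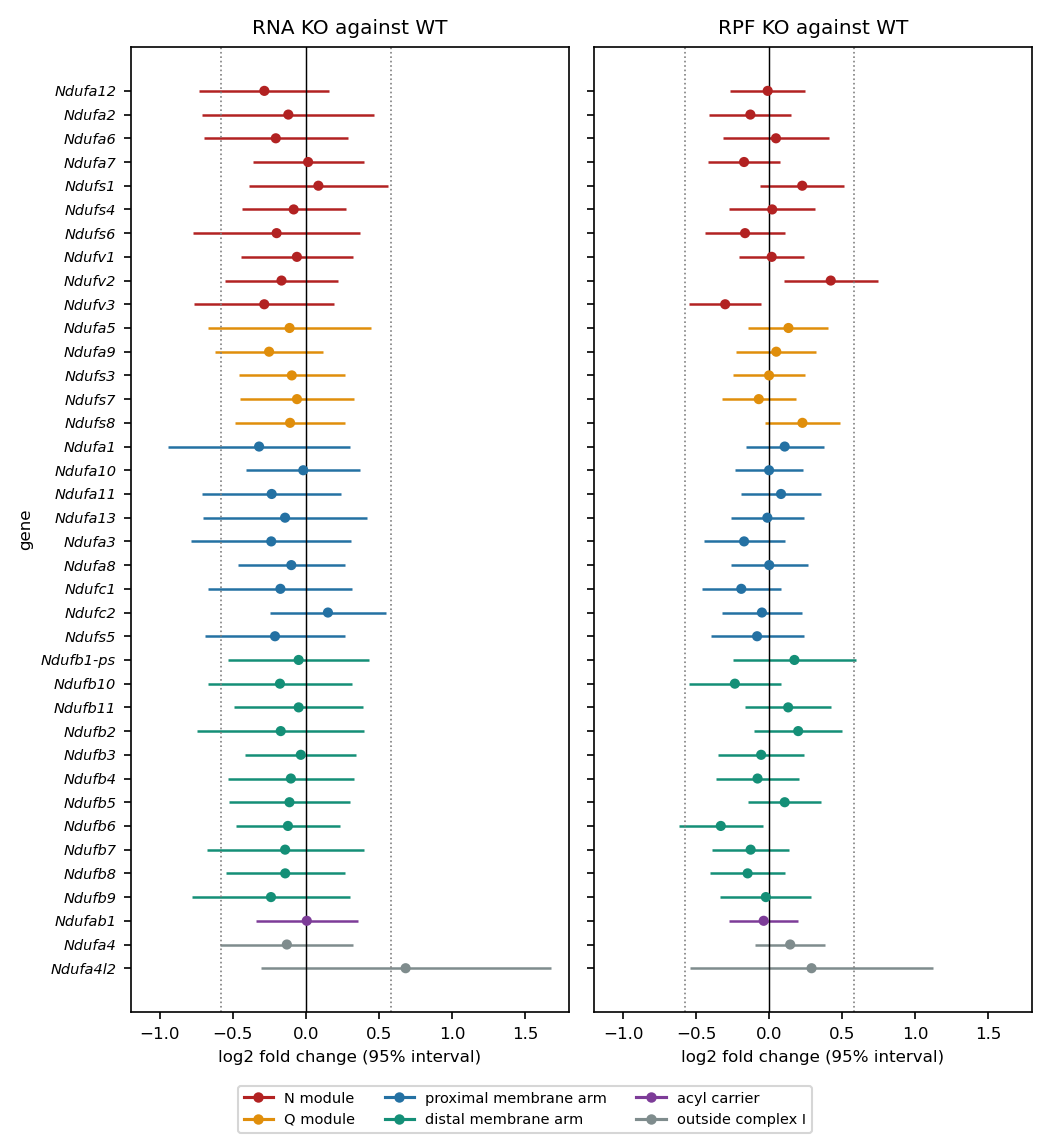
Log2 fold change of KO against WT (x axis; point) with its 95% interval (line) for 38 of the 39 members (y axis), in RNA (left) and RPF (right), coloured by place in the complex; dotted lines mark 1.5-fold, 0.58 on the log2 scale. Over all 39 members 35 intervals lie within 1.5-fold in RPF and 20 in RNA, and no member has an adjusted p below 0.05.

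Translational efficiency (TE), the footprint to mRNA ratio, was compared between genotypes as the interaction of assay and genotype. Of the 39 members 0 passed the test (0% of all rows), and 1, *Ndufv2*, had an unadjusted p below 0.05 (3.73% of all rows); DESeq2 also called 0 members. The log2 change was below 0 in 6 of 39 members (48.3% of all rows), with a median of 0.12 beside 0.01 over all rows. Without WT 1, 20 of 39 were below 0. The highest values were those of *Ndufv2* at 0.61 ± 0.26 (SE; edgeR adjusted p = 1.00), *Ndufa1* at 0.45 ± 0.33 (SE) and *Ndufb2*, a small distal arm subunit, at 0.40 ± 0.32 (SE). *Ndufb2* had 392, 322 and 213 CPM in RNA WT and 222, 354 and 246 CPM in RNA KO, beside footprints of 216, 199 and 263 CPM in WT and 232, 277 and 269 CPM in KO. Both its assays overlapped between genotypes. The lowest values were those of *Ndufa4l2* at -0.37 ± 0.70 (SE), *Ndufb6* at -0.18 ± 0.22 (SE) and *Ndufc2* at -0.18 ± 0.23 (SE). In TE 10 of 39 intervals lay within 1.5-fold, so a change of that size was not excluded for the other members.

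Subunits of a complex that holds 1 copy of each can be compared with one another by footprints per length of coding sequence. Over the 36 complex I subunits with an annotated coding sequence, footprint density in WT ran from 433 to 2772 CPM per kb, a 6.40-fold range, and 30 of 36 lay within 2-fold of the median of 971 CPM per kb. RNA level per kb of transcript ran from 56.8 to 2805 CPM per kb, a 49.4-fold range, with 19 of 36 within 2-fold of their median of 577 CPM per kb. The SD over subunits of the log2 level was 0.65 for footprint density and 1.45 for RNA. In KO these SDs were 0.60 and 1.40. With RNA taken per kb of coding sequence the RNA SD was 1.29, and without the 5 members that share over 50% of their coding windows of 28 bases with another gene's transcripts (*Ndufab1*, *Ndufb4*, *Ndufs5*, *Ndufa12* and *Ndufs3*, whose counts are uncertain for that reason) the SDs were 0.68 and 1.503. Over all 7971 nuclear coding rows tested in both assays the SD was 2.23 for footprints and 2.63 for RNA, and over 44 subunits of the other respiratory complexes, which differ in copy number and tissue isoform, it was 1.56 and 2.27. These spreads over genes are descriptions and were not tested.

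Within the complex, the matrix and membrane arms had like footprint densities. The median was 900 CPM per kb over 10 N module subunits, 957 over 6 Q module subunits, 1141 over 9 of the proximal and 931 over 10 of the distal membrane arm. The N module spanned 433 to 1960 CPM per kb, the Q module 469 to 1584, the proximal arm 628 to 1709 and the distal arm 549 to 2772, so all overlapped. The lowest densities belonged to *Ndufs4*, at 433 ± 52.1 CPM per kb (SD, n = 3), *Ndufa6*, at 450 ± 92.9, and *Ndufs8*, at 469 ± 9.34, which do not differ beyond their spread. *Ndufs4* stabilises the N module and is a known Leigh syndrome gene. *Ndufs1* came next, at 484 ± 68.2 CPM per kb (SD, n = 3). The highest were *Ndufb10*, at 2772 ± 425, *Ndufs6*, a zinc-binding N module subunit, at 1960 ± 75.1, and *Ndufb8*, a distal arm subunit, at 1857 ± 210 CPM per kb (SD, n = 3). *Ndufs6* and *Ndufb8* overlapped in their libraries and *Ndufb10* lay above both. *Ndufab1*, the mitochondrial acyl carrier protein, which is present in 2 places of the complex and also serves fatty acid synthesis, stood at 1448 ± 44.8 CPM per kb (SD, n = 3). Outside complex I, *Ndufa4* had the highest density of all members, 4836 ± 284 CPM per kb (SD, n = 3), and *Ndufa4l2* the lowest, 52.8 ± 14.0.

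With these lengths, footprint density and RNA level were only loosely ordered alike. RNA was taken per kb of annotated transcript, and no correlation with RNA per kb of coding sequence is given here. Long untranslated parts lower that RNA level. *Ndufb2*, with 4012 of 4371 bases after its coding sequence, stood at 70.7 CPM per kb. The part of the annotated lengths in the loose order was not tested. Over the 36 subunits Pearson's r of the log2 values was 0.38 in WT and 0.37 in KO, and Spearman's rho 0.37 and 0.38, as a description over genes that share libraries and length terms. The order of footprint density itself was close between genotypes, with r = 0.97. *Ndufs1* and *Ndufb9* show the contrast. *Ndufs1* had the lowest RNA level of the 36, 56.8 ± 11.8 CPM per kb of transcript, and *Ndufb9*, a distal arm subunit of the LYR family, the highest, 2805 ± 781 CPM per kb (SD, n = 3). Their footprint densities were 484 ± 68.2 and 549 ± 105 CPM per kb of coding sequence (SD, n = 3), which overlap.

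**Figure D4:**
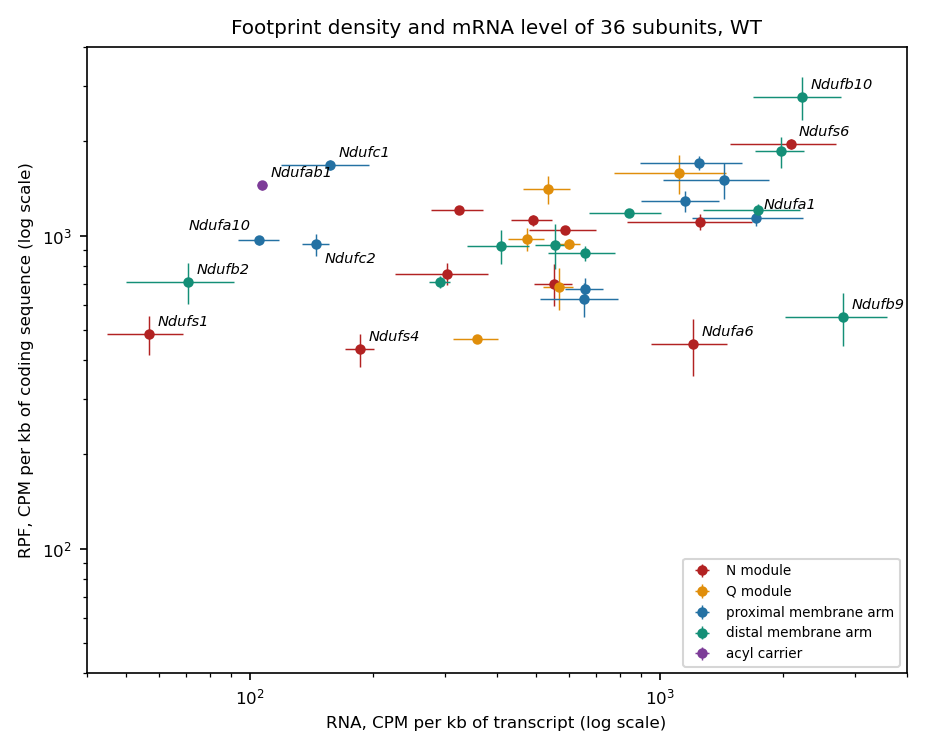
Footprint density in CPM per kb of coding sequence (y axis, log scale) against RNA level in CPM per kb of transcript (x axis, log scale) for 36 complex I subunits in WT; points are means of 3 libraries, bars are SD, colours give the place in the complex. Both axes span the same range, and the points spread over 49.4-fold horizontally but 6.40-fold vertically.

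Footprints were then set against RNA within each genotype, on the scale of the typical row. In WT 38 of 39 members passed edgeR's test for a difference between RPF and RNA (73.8% of all rows), 35 of them lower (35.6% of all rows) and 3 higher (38.3% of all rows). In KO the figures were 38 of 39 (72.6% of all rows), 35 lower (34.7%) and 3 higher (37.9%). The median log2 ratio of the members was -2.03 in WT and -1.85 in KO, beside 0.05 and 0.08 over all rows. The zero of this ratio depends on how the assays are scaled: 35 members in WT and 36 in KO lay below 0 (48.9% and 48.4% of all rows), but with scaling inside each assay 25 and 22 did, where the members' median relative to that of all rows was -2.07 and -1.91. Across the alternatives that kept all libraries, 31 to 38 members passed the test in WT and 27 to 38 in KO. The shares of all rows in those fits are not given here. Rows chosen for a high RNA level had lower ratios here. RNA is also the denominator of the ratio, so this choice by itself favours low ratios. Among the 585 nuclear coding rows with at least 100 CPM in RNA WT the median ratio was -2.26, and that of the 36 members among them -2.07, with 12 of 36 below the median of these rows. Short coding sequences also had lower ratios, with a median of -1.09 over 186 rows of up to 300 bases and of 0.42 over 3684 rows above 1500 bases. In the class of 300 to 600 bases, 20 of 22 members lay below the median of -0.77 over 902 rows. Below the median of their class lay 4 of 6 members of up to 300 bases and 4 of 4 of 600 to 1000. The same held for 4 of 5 of 1000 to 1500 and 0 of 1 above 1500. These classes were not matched on RNA level.

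The ratio ranged widely among the members, and those at its ends are shown with their annotated start codons, the place where footprinted ribosomes begin. The 3 lowest and 3 highest ratios in WT belonged to the genes below; each line gives 24 bases of the annotated transcript (GENCODE M21, GRCm38), 5′ to 3′, with 12 bases before the start codon, the start codon in capitals and 9 bases after it.
Ndufb9: gagccggacgctATGgcgttctgc
Ndufa6: ttcctcggcaagATGgcggccgcg
Ndufa1: aacggtgcggagATGtggttcgag
Ndufa10: gacggcgaagtcATGgccttgagg
Ndufs1: aggaaagccatcATGttaaggata
Ndufa4l2: cactgggacaagATGgcaggaact

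*Ndufb9* (chr15:58933756-58939488, plus strand, 4 exons) had the lowest ratio, -4.40 ± 0.25 (SE), with 2458, 2090 and 1376 CPM in RNA WT and 266, 261 and 362 CPM in RPF WT. It also had the highest RNA level per kb of transcript among the members. In KO it had 1371, 2014 and 1631 CPM in RNA and 269, 312 and 294 CPM in RPF, a ratio of -4.16 ± 0.25 (SE). *Ndufa6* (chr15:82350140-82354322, minus strand, 3 exons), an N module subunit of the LYR family that binds the acyl carrier protein, had a ratio of -3.66 ± 0.24 (SE). Its RNA WT values were 857, 719 and 559 CPM and its RPF WT values 180, 140 and 214 CPM. *Ndufa1* had 229, 242 and 259 CPM in RPF WT and 259, 278 and 248 CPM in RPF KO, at a ratio in WT of -3.23 ± 0.26 (SE). All 3 passed edgeR's test in both genotypes, and the lowest adjusted p was that of *Ndufb9* in WT, 3.45e-10.

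At the other end, *Ndufa10* (chr1:92439010-92473860, minus strand, 10 exons), a proximal arm subunit related to nucleoside kinases, had 199, 199 and 241 CPM in RNA WT and 1010, 1018 and 1073 CPM in RPF WT. Its ratio was 0.62 ± 0.15 (SE; edgeR adjusted p = 0.00161), and in KO it was 0.66 ± 0.15 (SE). Without the filter on low counts its value relative to all rows was 0.09 and missed the threshold. *Ndufs1* (chr1:63143596-63176822, minus strand, 19 exons) had a ratio of 1.15 ± 0.20 (SE; edgeR adjusted p = 6.91e-05) in WT and 1.31 ± 0.20 (SE) in KO. *Ndufa4l2* (chr10:127514967-127517154, plus strand, 4 exons) had a ratio of 2.29 ± 0.51 (SE; edgeR adjusted p = 0.000663) in WT on few RNA counts. *Ndufs1* also has the longest coding sequence of the members, 2184 bases, and *Ndufa1* the shortest, 213 bases. In the fit reported, *Ndufc2* was the 1 member that did not pass the test in either genotype. Its ratio was 0.12 ± 0.16 (SE) in WT and -0.06 ± 0.16 (SE) in KO. Which members lie near 0 depends on how the assays are scaled, so this is not particular to *Ndufc2* under other scalings.

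**Figure D5:**
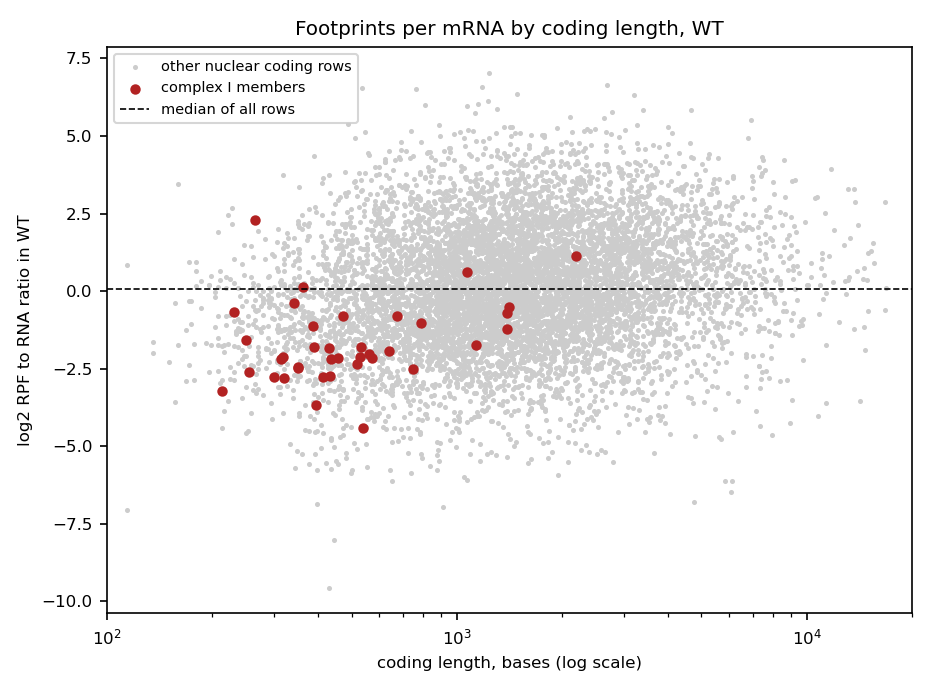
Log2 ratio of RPF to RNA in WT (y axis, edgeR fit over all 12 libraries) against coding length in bases (x axis, log scale) for 38 members with a coding sequence (red) and the other nuclear coding rows tested in both assays (grey); the dashed line is the median of all 7971 rows. Of the members 34 of 38 lie below the dashed line, and most have coding sequences shorter than 600 bases.

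The start codon surroundings of the members were alike in a way that the choice of members did not use. A purine stood 3 bases before the start codon in 37 of 38 members with a coding sequence (97.4%), against 87.6% of 7824 coding rows tested in both assays. A G directly after the start codon was found in 25 of 38 (65.8%), against 54.1%, and both together in 25 of 38 (65.8%), against 47.2%. The letters AAGATGGC, with the start codon inside them, stood at the start of 11 of 38 members (28.9%) and of 4.19% of the coding rows, of which *Ndufa6* and *Ndufa4l2* above, at the low and the high end of the ratio, are 2. Further examples with like letters come from the N and Q modules and are shown in the same way.
Ndufs4: gcctacaggaagATGgcggcggtc
Ndufs6: gtcaccggcaagATGgcggcggtg
Ndufs7: gccgaggccaagATGgcggcgctg
Ndufa9: ttgtgggagaagATGgcggccgcc

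These 4 genes had log2 ratios in WT of -2.13, -2.45, -0.81 and -1.74, so genes with the same letters differed in ratio. The single member without a purine at that place was *Ndufs8*. Shares of sequence features are descriptions of the annotated transcripts, and where the ribosomes start was not measured in these count tables.

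*Ndufb1-ps* is the row for the distal arm subunit NDUFB1, and the annotation gives it no coding sequence: it is classed as a bidirectional promoter lncRNA (chr12:101968090-101976254, minus strand, 3 exons, transcript of 861 bases). Footprints were nevertheless counted on it in every library, 536, 343 and 788 counts in RPF WT and 879, 1088 and 652 counts in RPF KO, or 122 ± 39.5 CPM and 138 ± 20.5 CPM (SD, n = 3). Its RNA stood at 284, 202 and 171 CPM in WT and 190, 245 and 199 CPM in KO. The longest open reading frame that begins with ATG has 57 codons, from position 604 to 777 of the transcript. Its first 30 bases are shown with the ATG in capitals, since this is the frame an annotation without a coding sequence leaves unmarked.
Ndufb1-ps: ATGaccttatttcagcttctacgtgagcac

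None of its 28-base windows is shared with another gene's transcripts. The tables give counts per transcript, so whether the footprints lie in this frame was not tested. Its ratio of RPF to RNA, -2.50 ± 0.25 (SE; edgeR adjusted p = 1.39e-07) in WT, lay below the members' median of -2.03. KO and WT libraries overlapped in both assays.

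The factors that build complex I and its mitochondrial subunits give the setting. Of 18 assembly factors 17 were tested in RNA and 18 in RPF, and 0 passed the test in either. Below 0 were 12 of 17 in RNA (50.9% of all rows) and 7 of 18 in RPF (49.8% of all rows). Their footprint density in WT had a median of 47.9 CPM per kb of coding sequence over 17 factors, beside 971 for the subunits. *Ndufaf7*, a methyltransferase, was the 1 factor with an unadjusted p below 0.05 in RPF, with a log2 fold change of 0.46 ± 0.20 (SE; edgeR adjusted p = 0.834). The 6 mitochondrially encoded subunits analysed here also had 0 past the test. Their log2 fold change in RPF was above 0 in 6 of 6, from 0.18 to 0.46, beside 2 of 6 in RNA. Over all rows it was above 0 in 5599 of 11153 in RPF and 4111 of 8379 in RNA. In RPF 0 of 6 had every KO library above every WT library. The mitochondrial share of RPF counts varied from 2.28% to 4.08% between WT libraries and from 2.54% to 5.22% between KO libraries. The 5.22% was that of KO 1, and the other KO libraries lay within the WT range. The direction of the 6 genes without KO 1 is not given here, so the part of that library in it was not tested. Of 45 tested subunits of the other respiratory complexes 0 passed the test in RNA or RPF, with median log2 fold changes of -0.07 and -0.04.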

How the data were processed

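Counts came from 12 libraries of adult left ventricle, 3 for each genotype and assay; groups and replicate numbers were read from the sample titles. The authors deposited raw counts per transcript name. Cutadapt 1.18 and Bowtie2 2.4.2 are named in the submitters' processing notes; the build, the counting program, the region counted, the use of strand and the treatment of reads matching several genes are not given in the sources used here, so counts of paralogs and overlapping genes are uncertain. RNA was selected for poly(A) tails with a strand-specific kit and RPF libraries were made with a small-RNA kit, per the labels' protocols. Of 21669 names, 21425 (98.87%) matched GENCODE M21.

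Members and lists were chosen with earlier results of these data known. The genes named were the 7 nuclear core subunits, the 3 highest and 3 lowest members of each comparison, and *Rpl3l*; other members were named after their values were seen, and the values of 1 core subunit are not reported here. edgeR 4.0.16 in R 4.3.3 was used with filterByExpr (minimum count 10), TMM scaling, the quasi-likelihood F test and Benjamini-Hochberg adjustment over all rows (threshold 0.05). RNA and RPF were fitted on 6 libraries each, TE and the RPF to RNA ratio on all 12. The SE was taken as the log2 fold, without its sign, over the root of the F statistic. CPM per kb used annotated lengths. DESeq2 1.42.0, other scalings, other filters, a replicate block, a term for the RNA library split and leaving out each library were alternatives. In simulated data 200 genes were changed, all drawn from rows with a mean of at least 50 counts. There 2-fold changes were recovered for 57% (RNA, 8379 genes), 69% (RPF, 11153) and 13% (TE, 8044), and 4-fold changes for 99%, 97% and 92%. With fewer changed genes the adjustment is stricter, so recovery in the real data may be lower. Floors of 3 counts (0.355 to 0.452 CPM in RNA, 0.401 to 0.784 in RPF) cover counting error only. Replicate libraries of a group differed by more than sampling noise (chi-square per degree of freedom from 6.53 to 31.7).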

Additional observations from a re-analysis of the deposited data

How the results depend on the processing

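No alternative gave a member an adjusted p below 0.05 between genotypes in RNA, RPF or TE. The direction of the members was less stable. Leaving out 1 library at a time, the members below 0 ranged from 21 to 36 in RNA (21 without WT 1) and from 5 to 20 in TE (20 without WT 1, 13 without KO 1, 14 without KO 3). In TE they numbered 10 with median-of-ratios scaling, 10 with DESeq2, 13 with a mean of at least 50 counts and 12 with scaling within each assay, against 6 in the fit reported. With a term for the split of the RNA libraries 23 members were below 0 in RNA. The members' median RPF to RNA ratio relative to all rows was -2.56 in WT and -2.35 in KO without a filter and -1.52 and -1.34 with a mean of at least 50 counts, since the rows tested change; with scaling within each assay 22 members lay below 0 in KO. Among single genes, *Ndufs1* in RNA was -0.086 with the term for the split and ranged from -0.015 (without KO 1, with -0.012 without WT 2) to 0.27 with 1 library left out. *Ndufa4l2* ranged from -0.22 (without KO 3) to 0.67 in RPF and from -0.90 to 0.076 (without KO 1) in TE. The SD of log2 RNA level was 1.32 in library WT 3 alone, 2.08 with *Ndufa4* and *Ndufa4l2* and 1.29 per kb of coding sequence; that of footprints was 0.73 in WT 2 alone, 1.01 with those genes and 0.97 per kb of transcript, which counts the untranslated parts as length. The per-coding RNA value, the removal of shared sequences and the spread without each WT library were chosen after seeing the data.

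The labels do not say that equal replicate numbers mark 1 animal. Deviations of same-numbered WT and KO libraries correlated at -0.21, 0.36 and 0.41 in RNA and 0.04, 0.01 and 0.00 in RPF, and those of RNA and RPF libraries at 0.08, 0.15 and 0.08 in WT and 0.11, 0.11 and 0.12 in KO, so all 3 such KO pairs but 1 of 3 WT pairs passed 0.1, and since not every pair did, numbers were not treated as pairs. With a replicate block 0 members were called between genotypes, and 34 of 39 lay below 0 in RNA, 20 in RPF and 9 in TE. In the RPF to RNA ratio 37 (WT) and 38 (KO) were called. The shares of all rows in the block fits are not given here. In the fits without a block 73.8% (WT) and 72.6% (KO) of all rows were called in that ratio. The call lost with the block in WT was that of *Ndufa7*, whose ratio was -0.38 with the block (edgeR adjusted p = 0.0556) and -0.40 without it (0.0262).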

Other observations

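Promoter sequences (RefSeq, GRCm38.p6, 250 bases before to 50 after the start) were matched for 33 of 39 members and searched on both strands for the letters of 3 factors known for respiratory genes. AAGATGGC, bound by YY1, was found in 7 of 33 members (21.2%) and 3.19% of 27025 promoters. In all 7 (*Ndufa3*, *Ndufa9*, *Ndufb8*, *Ndufc1*, *Ndufs4*, *Ndufs6* and *Ndufs7*) the letters also stand at the GENCODE start codon. In GENCODE 58, 202, 96 and 248 bases precede that codon in *Ndufc1*, *Ndufs4*, *Ndufs6* and *Ndufs7*, more than the 50 searched. The RefSeq starts can differ, and whether both matches are the same place was not tested. CCGGAAG, an ETS core, was found in 4 (12.1% against 9.93%), and CAAGGTCA, a site of the ERR factors, in 1 (3.03% against 1.76%), *Ndufs5*. A match is a description of these letters, and binding was not measured.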
